A study of Mus musculus with 23 samples.

Results

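Replication-dependent histone genes encode the core and linker histones that package newly copied DNA, and they were examined here across Brca1-deficient mouse mammary tumors. The members were all genes of the table whose symbol starts with Hist1h, Hist2h, Hist3h or Hist4h, which gave 64 of 14535 genes. They comprised 4 H1, 17 H2A, 19 H2B, 11 H3 and 13 H4 genes. The rule used the symbol alone and no measured value.

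The study sequenced RNA from 23 primary mammary tumors, 1 library per tumor, all labelled Brca1-deficient and of mixed strain. Loss of Brca1 in this model is driven by Cre under the MMTV promoter, and some of the mice also carried 1 floxed Trp53 allele, which the study's supplement assigns tumor by tumor but the labels do not. Groups were taken from the labels alone, so tumors were not compared by Trp53 genotype here, and the labels give no ages. There was thus 1 group with no control, and the members were compared across tumors. Values were log2(FPKM + 1), where FPKM is fragments scaled to transcript length and to the library's total, so the levels of different genes below are per length.

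Most mammalian mRNAs end in a poly(A) tail, but replication-dependent histone mRNAs instead end in a conserved stem-loop that is bound by the stem-loop binding protein Slbp. Cells make these mRNAs in S phase, while DNA is being copied, and degrade them when replication stops. Libraries that select poly(A) tails capture them poorly, and whether tails were selected or ribosomal RNA was depleted here was not given in the sources used. The genes lie in clusters in which H2A and H2B genes often stand head to head and share a short stretch between their starts.

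The 3′ stem-loop is shown first because it sets these mRNAs apart from all others. The histone stem-loop was looked for in the GENCODE models (GRCm38) after the stop codon, as a stem of 6 paired bases around a loop of 4 bases, and 41 of the 64 members had a match, 21 to 58 bases after the stop. Of the 23 members without one, 15 had models that ended within 2 bases of the stop, 7 had a longer 3′ end without a match and 1 is a pseudogene with no coding region. The loop is in capitals in the lines below, which give the mRNA strand.
Hist1h1c (chr13:23739512-23739527, + strand): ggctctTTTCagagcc
Hist1h2ao (chr13:21810898-21810913, + strand): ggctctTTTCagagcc
Hist1h2bk (chr13:22036300-22036315, + strand): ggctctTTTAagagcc
Hist2h2ac (chr3:96220418-96220433, - strand): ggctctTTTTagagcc
Hist1h4h (chr13:23531458-23531473, + strand): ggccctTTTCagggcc
Hist1h4b (chr13:23757366-23757381, + strand): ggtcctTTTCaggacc
Hist1h4i (chr13:22040966-22040981, - strand): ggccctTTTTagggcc
The form printed for Hist1h1c and Hist1h2ao was carried by 25 members of the H1, H2A, H2B and H3 classes, and that of Hist1h4h by 7 members, all H4. The form of Hist1h2bk was found in 4 H2B and H3 genes, those of Hist1h4b and Hist1h4i in 2 H4 genes each, and that of Hist2h2ac in this gene alone. In 20 of the 41 matched members the GENCODE model went on for more than 100 bases past the stem-loop. Whether FPKM was also counted over this downstream sequence is unknown, since the annotation behind the FPKM was not given.

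The stretch between a head-to-head pair is shown because the pairs share it while, as described further below, their levels did not move together. In the RefSeq promoter windows (GRCm38.p6, 250 bases before the start, 59 members matched with 60 windows), 5 short motifs were searched on both strands. These were CCAAT (the sequence of the CCAAT box), TATAAA (a sequence of the TATA box), ATTTGCAT (the octamer known from H2B genes), AAACACA (the H1 box) and GGTCC (the core of the H4 site). A match was counted wherever it lay in a window, so a match need not be a working site. The motifs are in capitals below. The TATAAA of Hist1h4i lies near the end of the printed 150 bases that is farthest from the start.
Hist1h2ae to Hist1h2bg, from start to start (chr13:23571221-23571395, + strand): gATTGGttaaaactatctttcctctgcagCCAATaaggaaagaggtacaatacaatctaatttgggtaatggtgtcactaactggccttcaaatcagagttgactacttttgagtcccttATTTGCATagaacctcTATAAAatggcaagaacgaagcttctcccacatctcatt
Hist1h1c, upstream of its start (chr13:23738657-23738806, + strand): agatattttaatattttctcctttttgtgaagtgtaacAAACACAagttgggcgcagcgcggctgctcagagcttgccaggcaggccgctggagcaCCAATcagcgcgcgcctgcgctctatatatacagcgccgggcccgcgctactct
Hist1h4i, upstream of its start (chr13:22041363-22041512, - strand): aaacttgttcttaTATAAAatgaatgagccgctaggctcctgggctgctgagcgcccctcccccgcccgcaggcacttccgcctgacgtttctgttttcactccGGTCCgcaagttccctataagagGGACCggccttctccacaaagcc
The classes differed in the motifs their windows held, set here beside the 32851 windows of all genes. CCAAT was in 17 of 17 H2A, 17 of 17 H2B and 4 of 4 H1 windows, against 33.8% of all windows, but in 3 of 12 H4 windows. ATTTGCAT was in 7 of 17 H2A and 7 of 17 H2B windows, against 1.60% of all. Head-to-head genes have 173 to 306 bases between their starts, so the windows of such a pair can overlap. A match in the overlap was counted in both classes, so the H2A and H2B counts are not separate. AAACACA was in 4 of 4 H1 windows, against 6.25% of all, and GGTCC in 11 of 12 H4 windows, against 39.8% of all. TATAAA was in 3 of 4 H1, 7 of 17 H2A, 8 of 17 H2B, 4 of 10 H3 and 6 of 12 H4 windows, against 12.4% of all. No match of a motif outside these windows was looked for.

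Some facts of the whole series touch the results. The read depth of each tumor is unknown, since FPKM keeps no total, and no counting interval can be given. The paper also names different sequencing platforms and run lengths for the bulk libraries, whose part in the patterns below was not tested. The summed share of snoRNA and other short RNA genes was 4.84% of FPKM in the lowest tumor, 9.41% in the median and 72.7% in X149T2. Epithelial markers (Krt8, Krt18, Epcam, Krt14 and Cdh1) summed to 58.2 to 4529 FPKM, and Epcam was listed at 0 in X520T. Fos, an immediate-early transcription factor gene, left a wide gap between 8 tumors at 3.39 to 5.37 and 15 tumors at 8.16 to 9.99, and values are given within the 15 tumors where that matters. In 4 cases a pair of tumors shared the number in their titles, and whether these came from the same mouse is not stated, so p-values measure only the spread among these 23 samples.

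Histone genes spanned from some of the better measured genes of the tumors to genes listed at 0. Of the 64 members, 53 passed the filter of a mean FPKM of at least 1, which 12041 of all 14535 genes passed: 4 H1, 15 H2A, 17 H2B, 6 H3 and 11 H4 genes. The 11 members below it were Hist1h2aa, Hist2h2ab, Hist2h2be, Hist3h2bb-ps, Hist1h3a, Hist1h3c, Hist1h3e, Hist1h3g, Hist2h3c1, Hist2h4 and Hist4h4, named here after their values were seen, with medians of 0 to 0.65. The median of the members' medians was 2.62 on the log2 scale among those past the filter, against 3.28 over all genes past it. The 51 members of the Hist1 cluster on chromosome 13 supplied 46 of the 53.

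**Figure D1:**
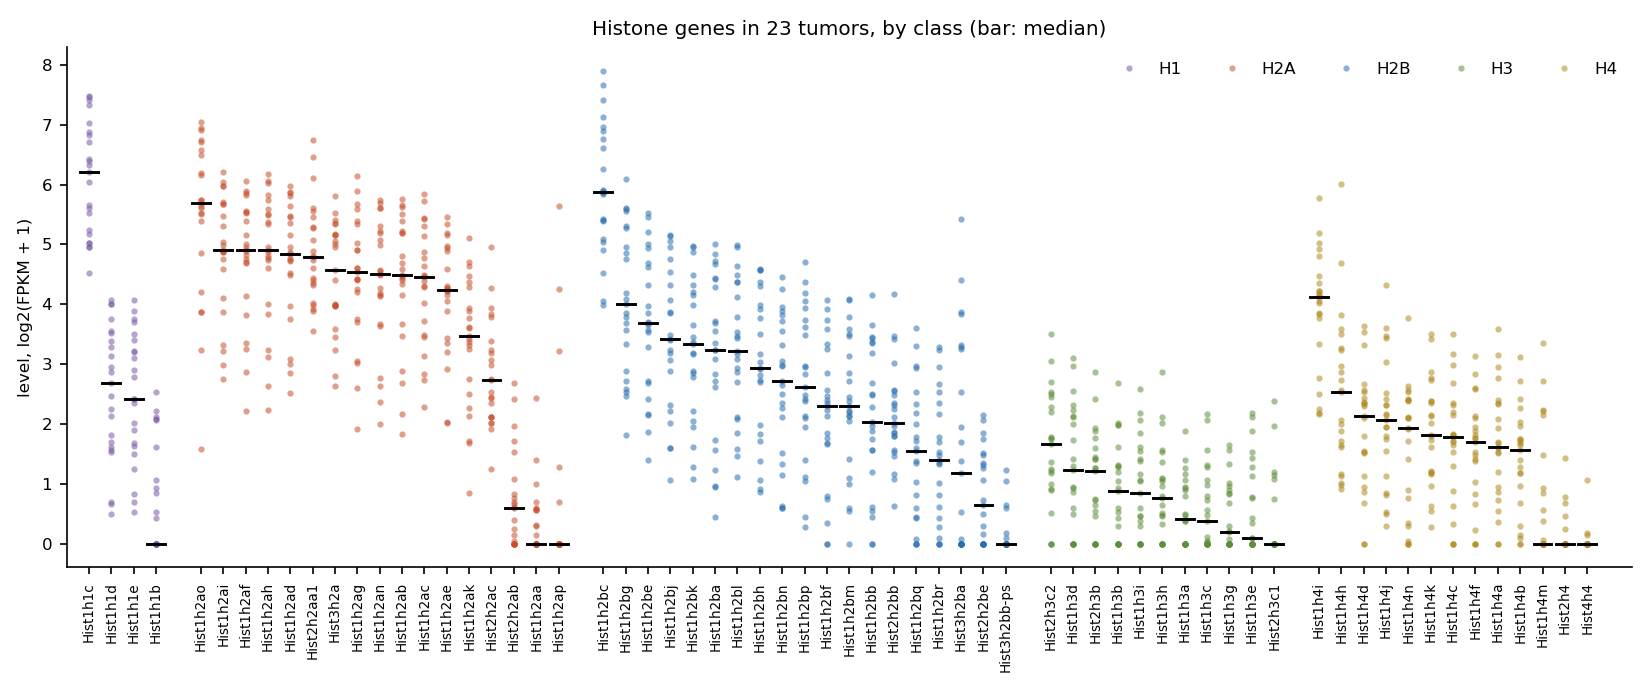
Levels of the 64 histone genes on the log2(FPKM + 1) scale (vertical axis), grouped by class and ordered by median along the horizontal axis. Each point is 1 of 23 tumors and each bar the median over tumors; Hist1h1c and Hist1h2bc have the highest medians (6.21 and 5.88), and the H3 genes have medians of at most 1.67.

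Linker histone H1 binds the DNA between nucleosomes. Hist1h1c was the member with the highest median, with a lowest level of 4.52 in X493T1, a median of 6.21 and a highest level of 7.49 in X1310T1. Hist1h1d ran from 0.50 to 4.08 with a median of 2.69, and Hist1h1e from 0.53 to 4.08 with a median of 2.43. Hist1h1b was the lowest of the class: it was listed at 0 in 12 tumors and reached 2.53 in X1463T1. Every level of Hist1h1c was thus above every level of the other H1 genes.

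H2A pairs with H2B in the nucleosome. Hist1h2ao had the highest median of the class, 5.69, and ran from 1.58 in X370T to 7.04 in X606T. Hist1h2ai (2.75, 4.92 and 6.20 as lowest, median and highest), Hist1h2af (2.22, 4.91 and 6.07), Hist1h2ah (2.24, 4.91 and 6.18) and Hist1h2ad (2.51, 4.85 and 5.98) followed. These genes overlapped over almost their whole range, and they were lowest in X370T or X1418T and highest in X154T. Hist2h2aa1, from the Hist2 cluster on chromosome 3, ran from 3.55 in X2265T to 6.75 in X606T with a median of 4.79. Hist3h2a, on chromosome 11, ran from 2.63 in X92T to 5.81 in X606T with a median of 4.57. Hist1h2ag, which completed the 10 members with the highest medians, ran from 1.92 to 6.15 with a median of 4.54.

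Among the H2B genes Hist1h2bc had the highest median of the class, 5.88, with a lowest level of 3.99 in X493T1 and a highest of 7.90 in X606T, the highest level of any member in any tumor. Hist3h2ba had the lowest median of the class past the filter, 1.19. It was listed at 0 in 9 tumors, reached 5.43 in X147T and 4.41 in the next tumor, and had the widest spread of any member (SD 1.77, n = 23). Hist1h2ba, known in mouse as the testis-specific H2B gene, ran from 0.45 in X2265T to 5.0 in X1463T1 with a median of 3.24. Its model is 384 bases long with no untranslated 3′ end.

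The H3 and H4 genes were lower. Hist2h3c2 was the highest H3 gene, with a median of 1.67, listed at 0 in 3 tumors and at 3.51 in X738T. Hist1h3h was the lowest H3 gene past the filter, with a median of 0.76, listed at 0 in 6 tumors and at 2.86 in X147T. Hist1h4i was the highest H4 gene, running from 2.17 in X1463T2 to 5.78 in X606T with a median of 4.13. Hist1h4m was the lowest past the filter, listed at 0 in 12 tumors and at 3.35 in X154T.

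Histone genes varied more between tumors than the typical gene. The median SD of the 53 members was 1.07 on the log2 scale, against 0.71 over all 12041 genes, and 34 of the 53 had an SD of 1 or more, against 23.6% of all genes. By class the median SD was 1.01 for H1, 1.04 for H2A, 1.20 for H2B, 0.82 for H3 and 1.00 for H4. Between 3 and 25 of the 64 members were listed at 0 in a given tumor, with a median of 9. The 3 were in X147T and X606T, and the 25 in X2265T and X493T1.

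The classes were not scaled up and down together. Summed over all 64 genes, histone FPKM was 214 in X1418T, 702 in the median tumor and 1843 in X606T. The H2A sum ran from 88.8 in X1418T to 872 in X606T, with a median of 365. The H2B sum ran from 32.3 in X1463T2 to 570 in X147T, with a median of 179, a 17.6-fold range. The H1 sum ran from 23.3 to 208, the H4 sum from 6.18 to 206 and the H3 sum from 0 in X1463T2 to 42.8 in X147T. X370T had 99.2 FPKM of H2A and 346 of H2B, whereas X493T1 had 631 of H2A and 41.0 of H2B.

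**Figure D2:**
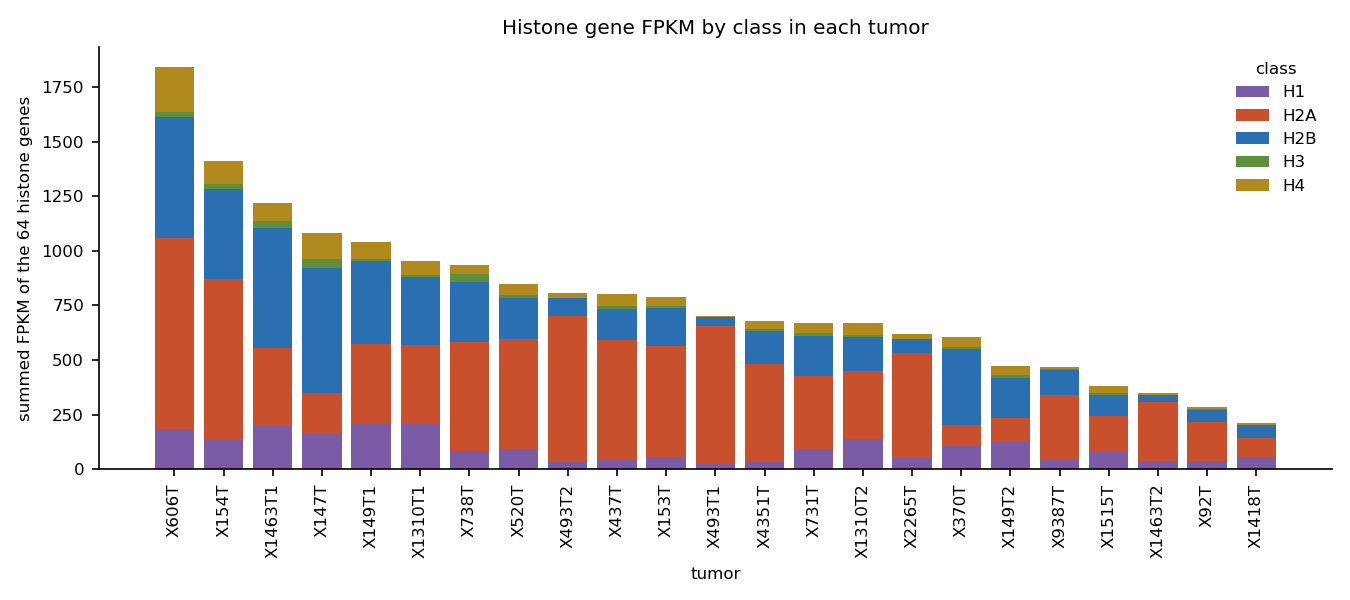
Summed FPKM of the 64 histone genes (vertical axis) in each of the 23 tumors (horizontal axis, ordered by total), stacked by class. The total falls from 1843 FPKM in X606T to 214 in X1418T, and the H2A part is 631 FPKM in X493T1 against 99.2 in X370T, while the H2B part is 41.0 against 346.

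The mean of the H2A genes minus that of the H2B genes was -1.56 on the log2 scale in X370T, 1.38 in the median tumor and 3.79 in X493T1. Tumors that shared a title number were not always close. X1463T1 and X1463T2 differed by a median of 2.17 (absolute log2 difference over the 53 members), with H2B sums of 549 and 32.3 FPKM but H2A sums of 360 and 271. X149T1 and X149T2 differed by 1.01, X493T1 and X493T2 by 0.55 and X1310T1 and X1310T2 by 0.54. The other 249 pairs of tumors had a median difference of 1.06 and ran from 0.24 to 2.90, so the X1463 pair lay above and the X1310 and X493 pairs below their median.

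Across tumors 11 of the 12 H2A genes of the Hist1 cluster moved together and apart from the H1, H2B, H3 and H4 genes, most of which moved with each other. All correlations here are descriptions over 23 tumors that share 1 table, and FPKM ties the values of a tumor together through its total. The median Pearson's r over the 1378 pairs of members was 0.48, against 0.043 over all pairs of the 12041 genes. Within classes it was 0.95 for H2B, 0.88 for H2A, 0.83 for H1, 0.83 for H4 and 0.61 for H3. Between H2B and H4 it was 0.82 and between H2B and H1 0.82, close to the values within H1 and within H4. Between H2A and H2B it was 0.00, between H2A and H1 -0.18, between H2A and H3 0.051 and between H2A and H4 0.13.

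The 12 Hist1 H2A genes past the filter had a median r of 0.94 with each other and of -0.016 with the 38 members of the other classes, whose own median was 0.78. The first principal component of the 53 members held 55.2% of their variance, the second 22% and the third 5.37%. Hist1h2ap, which was listed at 0 in 18 tumors, stood apart from the other 11, with an r of 0.12 to 0.32 with them. The 11 alone had a median r of 0.96 with each other and of -0.021 with the other classes. The 3 H2A genes outside the Hist1 cluster also stood apart from the 11. Hist2h2aa1 had an r of 0.32 with the score of the other H2A genes (the mean of their z scores) and of 0.71 with that of the H2B genes. Hist2h2ac, also of the Hist2 cluster, had 0.41 and 0.53, and Hist3h2a 0.46 and 0.42.

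**Figure D3:**
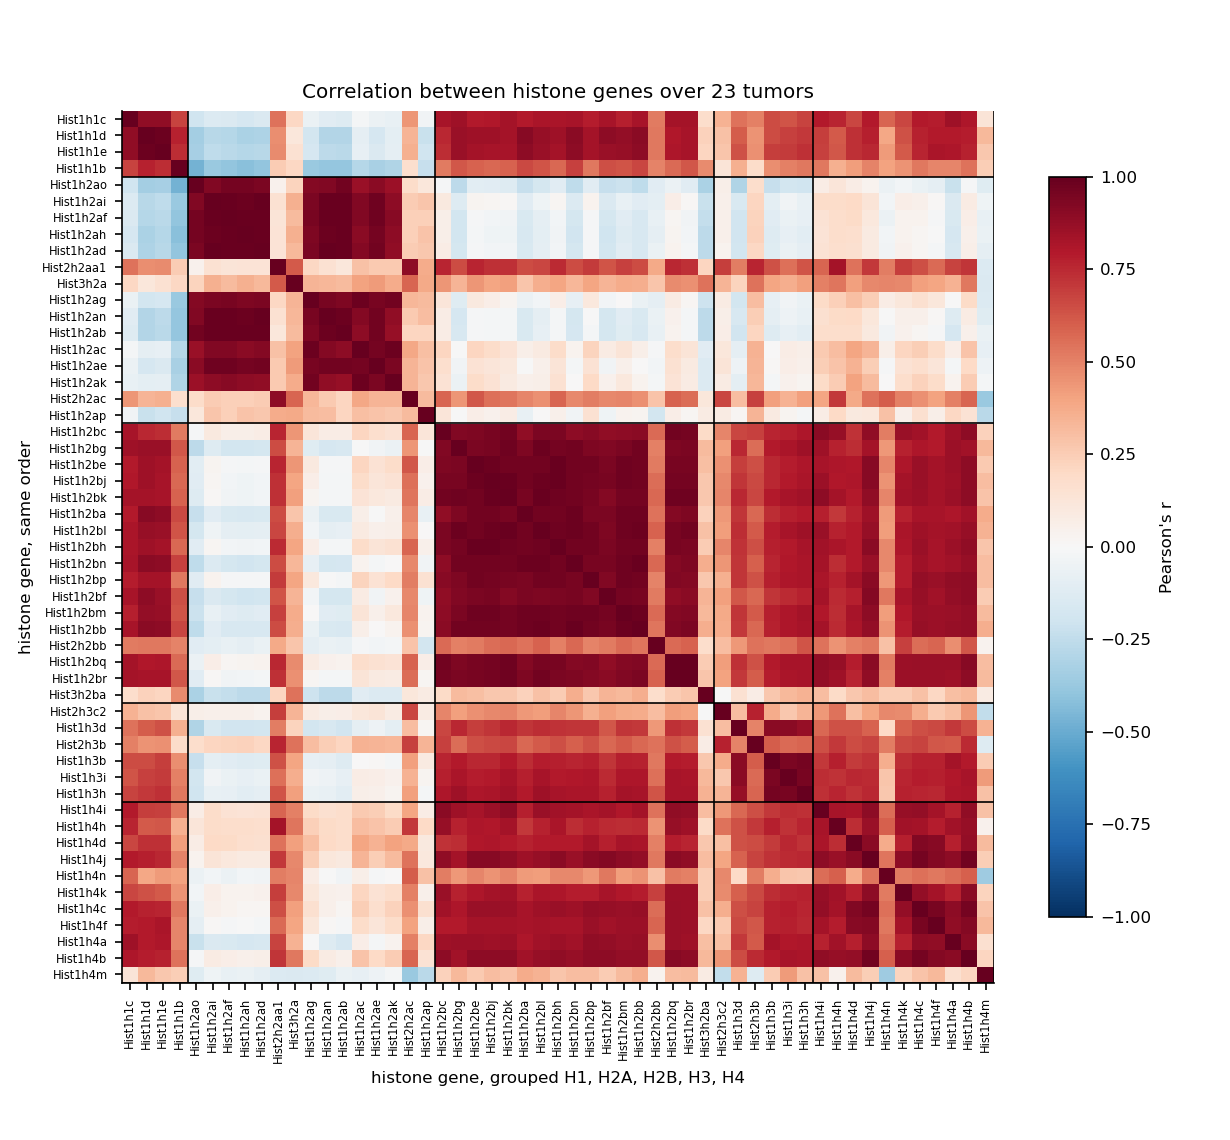
Pearson's r over 23 tumors between each pair of the 53 histone genes past the filter, ordered by class and by median level within a class on both axes; red is positive, blue is negative and black lines divide the classes. The Hist1 H2A genes other than Hist1h2ap form a block (median r 0.96) that is pale against H1, H2B, H3 and H4 (median r -0.021).

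Other members also stood apart from their class. Hist3h2ba had an r of 0.29 with the other H2B genes and Hist2h2bb, with a lowest, median and highest level of 0.64, 2.02 and 4.17, an r of 0.56, while the other 15 H2B genes had 0.8 or more. Hist1h2ba, the testis-type gene, was among these 15, at 0.96. Hist2h3b and Hist2h3c2 in the H3 class, Hist1h1b in the H1 class and Hist1h4m and Hist1h4n in the H4 class were also below 0.8.

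Head-to-head H2A and H2B genes moved together no more than H2A and H2B genes in general. GENCODE places 13 pairs of members head to head, with 173 to 306 bases between their starts, and in 10 of them both genes passed the filter. All 10 are H2A and H2B pairs. Their r ran from -0.18 for Hist1h2ad and Hist1h2bf to 0.21 for Hist1h2ac and Hist1h2bc, with a median of -0.019. The other 245 H2A and H2B pairs had a median of 0.00. Since most Hist1 H2A genes moved apart from the H2B genes, these pairs cannot show what sharing a stretch does. Reads shared between near-identical copies, described below, limit these values as well. Hist1h2ae and Hist1h2bg, whose common stretch is printed above, had an r of -0.036. Hist1h2ae was lowest in X1418T, at 2.01, and highest in X154T, at 5.46, while Hist1h2bg was lowest in X493T1, at 1.81, and highest in X147T, at 6.09.

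The plot of H2A against H2B scores shows all 4 combinations. X606T was high in both scores (1.43 for H2A and 1.20 for H2B) and X1418T low in both (-1.53 and -1.09). X493T1 was high in H2A and low in H2B (0.78 and -1.44), and X370T the reverse (-1.64 and 0.88). The 8 tumors with low Fos had H2A scores of 0.027 to 1.43 and the 15 with high Fos -1.64 to 0.85, which overlapped. For H2B the ranges were -1.44 to 1.20 and -1.50 to 1.47.

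**Figure D4:**
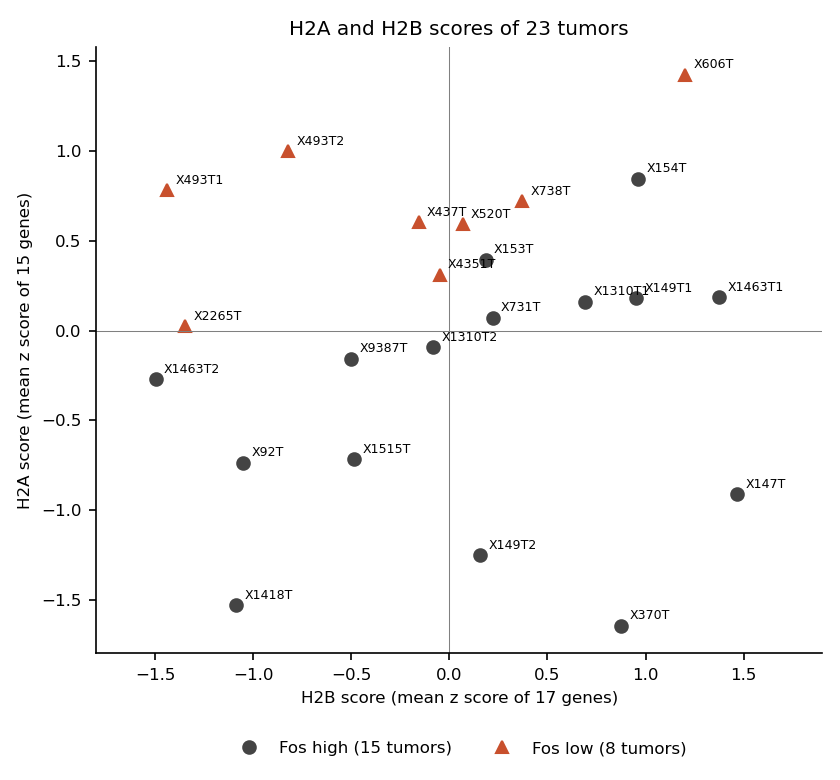
Score of the 15 H2A genes (vertical axis) against that of the 17 H2B genes (horizontal axis), each the mean z score over genes, in 23 tumors; triangles are the 8 tumors with low Fos and circles the 15 with high Fos. X493T1 (H2A 0.78, H2B -1.44) and X370T (-1.64, 0.88) lie in opposite corners, and no triangle lies below 0 on the H2A axis.

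Near-identical copies limit what single members show. Coding sequences of equal length had a median identity of 97.2% among H2A genes (92 pairs), 95.7% among H2B genes (92 pairs), 97.6% among H3 genes (45 pairs) and 93.9% among H4 genes (78 pairs). Reads that fit several copies are divided by the counting tool, and how many there were is not known, so the split between copies is uncertain. H2A pairs with an identity of 95% or more had a median r of 0.94, against 0.32 for those below. For H2B the values were 0.96 and 0.53, for H3 0.90 and 0.42, and for H4 0.83 and 0.83. The part of shared reads in the common movement was not tested.

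The 3 pairs with identical coding sequences showed 3 different outcomes. Hist1h2bq (listed at 0 in 3 tumors, median 1.55, highest 3.61) and Hist1h2br (median 1.39, highest 3.29) had an r of 0.99. Hist1h2ao was above 0 in all 23 tumors but Hist1h2ap in 5 only, and their r was 0.12. Summed, these copies ran from 1.85 to 7.13 with a median of 5.74, and the sum had an r of 0.91 with the H2A score, which holds both. Hist1h4m and Hist1h4n had an r of -0.35: both were above 0 in 8 tumors, Hist1h4n alone in 12 and Hist1h4m alone in 3. Their sum had an r of 0.89 with the H4 score, which holds both.

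Long and short models were compared within each class. Models over 1000 bases belonged to 13 of the 53 members, with a median SD of 1.06 against 1.07 for the other 40. This cut does not divide models by how far they go past the stem-loop. The Hist1h4c model of 820 bases goes on for 454 bases past it, and the long model of Hist1h2bc had no match. The scores of long and short H2B models had an r of 0.97 (5 and 12 genes), those of H4 0.88 (1 and 10 genes), those of H2A 0.84 (2 and 13 genes), those of H3 0.84 (2 and 4 genes) and those of H1, the lowest, 0.75 (3 and 1 genes).

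The first relation asked for was that to proliferation, since these mRNAs are made in S phase. Mki67, which encodes the proliferation antigen Ki-67, ran from 0.080 in X606T through a median of 3.74 to 5.09 in X437T, and the next lowest tumor was X738T at 1.52. No histone gene rose with Mki67 and 2 of 53 fell, at an adjusted p under 0.05 in limma (Benjamini-Hochberg over 12041 genes), where 7.08% of all other genes tested rose and 6.72% fell. The share of members that fell was thus below that of all genes. At an unadjusted p under 0.05, 0 members rose and 10 fell, against 11.7% and 19.7% of all genes. All 10 were H2A genes.

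Hist1h2ap fell by 1.03 on the log2 scale per SD of Mki67 (SE 0.24, adjusted p = 0.0073, limma). It was listed at 0 in 18 tumors and its levels in the other 5 were 5.64 in X493T2, 4.26 in X738T, 3.22 in X606T, 1.27 in X1515T and 0.70 in X370T. The first 3 of these were the tumors with the 3 lowest Mki67 levels, 1.77, 1.52 and 0.080. Its mean FPKM of 3.36 came from these 3 tumors, with 0.10 over the other 20, so it passed the filter through the tumors in which it was high, and its call carries no weight of its own. Without it 1 of 52 members fell. Hist2h2ac fell by 0.53 (SE 0.15, adjusted p = 0.024, limma). It ran from 1.26 in X2265T through a median of 2.73 to 4.95 in X606T, the tumor with the lowest Mki67. X606T was not the lowest in other proliferation genes. The mean z score of the mitosis genes was -0.42 in X606T and -2.27 in X1515T, the lowest. That of the DNA replication genes was 0.36 in X606T and -2.07 in X1515T, again the lowest. Hist1h2ag, Hist1h2an and Hist1h2ao had the next lowest slopes, -0.52 (SE 0.19), -0.50 (SE 0.20) and -0.49 (SE 0.26), and did not pass.

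No positive slope passed. The 5 highest were those of Hist1h4m at 0.38 (SE 0.21), Hist1h1b at 0.24 (SE 0.19), Hist1h1e at 0.17 (SE 0.22), Hist1h1d at 0.17 (SE 0.23) and Hist3h2ba at 0.14 (SE 0.36). The SE of a member ran from 0.15 to 0.36 with a median of 0.21, which sets the size of slope that could be seen. By class, 15 of 15 H2A slopes were below 0 (median -0.44), as were 10 of 11 H4 (median -0.13), 8 of 17 H2B (median 0.015), 2 of 6 H3 (median 0.031) and 1 of 4 H1 slopes (median 0.17). The median slope of all genes was -0.095. The H4 direction and the near-even split of H2B rested on X606T. Without it 17 of 17 H2B slopes (median 0.17) and 10 of 11 H4 slopes (median 0.13) were above 0. The H1 and H3 directions were kept, with 4 of 4 H1 (median 0.29) and 4 of 6 H3 slopes (median 0.17) above 0. The median slope of all genes was then -0.071. Genes of a class that move together do not give separate signs.

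**Figure D5:**
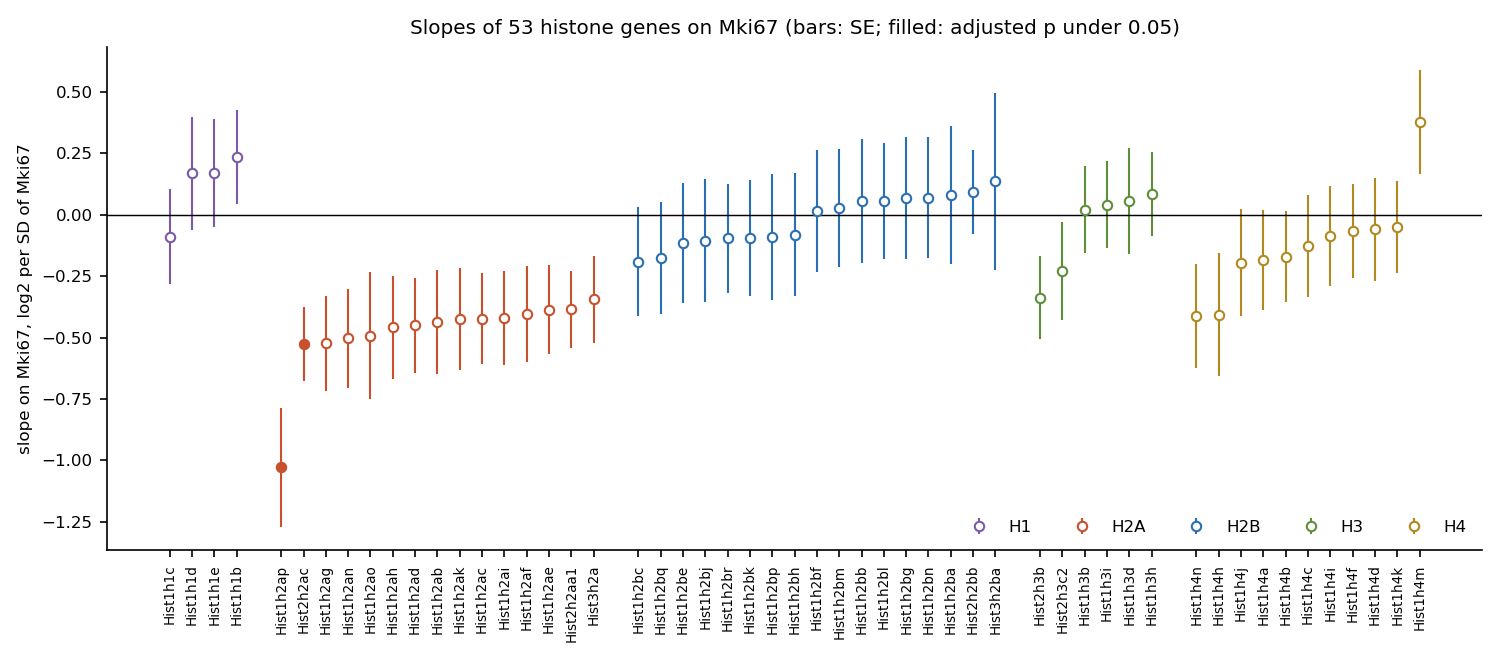
Slope of each of the 53 histone genes on Mki67 (vertical axis, log2 change per SD of Mki67, which is 1.25 on the log2 scale), ordered within class along the horizontal axis; bars are SE and filled points have an adjusted p under 0.05. All 15 H2A slopes are below 0 and only Hist1h2ap (-1.03) and Hist2h2ac (-0.53) are filled.

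The falling calls were not kept in several other settings, some of which called few or no genes at all. Without X606T, a setting added after seeing the data, Hist1h2ap alone fell, where 1.69% of all genes did. As said above, the call of Hist1h2ap carries no weight of its own. With Fos as a covariate 0 members fell (0.0166% of all genes), as within the 15 tumors with high Fos (0% of all genes) and on ranks (0.847% of all genes). The sign of the H2A slopes also turned: 13 of 15 were above 0 on the mitosis score and 15 of 15 on the DNA replication score (the means of the z scores of those genes). The median slope of all genes turned too, from -0.095 on Mki67 to 0.082 and 0.11 on these scores. Most of these H2A genes moved together, so their signs are not separate results. On either score 0 members were called, where 4.86% and 12% of genes passed in either direction.

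Base composition and transcript length of the library moved with both Mki67 and H2A. The GC contrast of a tumor, the median level of the 10% of genes with the highest transcript GC minus that of the lowest 10%, ran from -0.39 in X1463T2 to 2.59 in X606T. It had an r of -0.84 with Mki67, of 0.61 with the H2A score and of 0.036 with the H2B score. Across 11565 genes, which are not independent replicates, the slope on Mki67 had a Spearman's rho of -0.62 with transcript GC. The median transcript GC was 64.3% for H2A, 63.6% for H3, 57.9% for H4, 56.5% for H2B and 53.1% for H1, against 50.1% over all genes. The length contrast, built in the same way from the longest and shortest models, was lowest in X606T, at -2.14. It had an r of 0.56 with Mki67 and of -0.72 with the H2A score. With the GC or the length contrast as a covariate, both added after seeing the data, 0 members fell, where 0% and 0.656% of all genes did. Within the 15 tumors with high Fos the r of the GC contrast was -0.41 with Mki67 and 0.037 with the H2A score. The part of these properties in the H2A slopes was not tested.

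The scores gave the same picture as single genes. The histone score of the 53 members had an r of -0.23 with Mki67 (Spearman's rho -0.15), and of 0.13 without X606T and X738T, the tumors farthest from the median of Mki67. With scores from all 23 tumors it was 0.0032 within the 15 tumors with high Fos and -0.51 within the 8 with low Fos. It had an r of 0.12 with the mitosis score and of 0.12 with the DNA replication score, and these became -0.18 and -0.14 without the 2 farthest tumors, X1515T and X1418T. The H2A score had an r of -0.55 with Mki67 (rho -0.52), -0.38 without the 2 farthest tumors, -0.090 within the 15 and -0.75 within the 8. The H2B score had an r of -0.021, the H4 score of -0.14, the H3 score of -0.078 and the H1 score of 0.13.

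The proliferation genes themselves were only loosely tied to Mki67 in these values. Mki67 had an r of 0.30 with the mitosis score and of 0.026 with the DNA replication score over 23 tumors, but of 0.71 and 0.66 within the 15 with high Fos. The mitosis and replication scores had an r of 0.91 with each other. Of 25 mitosis genes 6 rose with Mki67 and 0 fell (median slope 0.21), where 7.08% of all genes rose and 6.72% fell. Cenpe, a kinetochore motor, rose by 0.83 (SE 0.13), Cenpf, a kinetochore protein, by 0.69 (SE 0.13) and Ttk, a spindle checkpoint kinase, by 0.64 (SE 0.18). Bub1, another checkpoint kinase, rose by 0.64 (SE 0.15), and Kif11, a spindle motor, and Ndc80, a microtubule binder, by 0.58 and 0.50 (SE 0.13 each). Of 34 DNA replication genes 1 rose and 0 fell (median slope 0.0032), which are shares below those of all genes. The gene that rose was Pola1, a subunit of the polymerase that starts each new strand, by 0.75 (SE 0.13). Pcna, the sliding clamp, had a slope of 0.13 (SE 0.10) and did not pass. These rises have the same limits as the falling calls of the members. With the GC contrast as a covariate and within the tumors with high Fos, 0% of all genes rose, so none of these calls was kept. Without X606T 3.41% of all genes rose, and whether these genes were among them is not given here.

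Of 22 tested genes that supply histone mRNA or deliver histones, 4 rose and 2 fell with Mki67 (median slope 0.027), where 7.08% of all genes rose and 6.72% fell. Npat, which activates histone genes at the start of S phase, ran from 0 in X606T through 1.74 to 2.71 and rose by 0.51 per SD (SE 0.11, adjusted p = 0.0026, limma). Casp8ap2, which works beside Npat at the histone loci, rose by 0.45 (SE 0.13), Asf1a, a chaperone of H3 and H4, by 0.38 (SE 0.13) and Atrx, a remodeler that helps deposit H3.3, by 0.99 (SE 0.12). Lsm10, a protein of the U7 particle that cuts histone mRNAs, fell by 0.41 (SE 0.11) and Daxx, the partner of Atrx, by 0.30 (SE 0.095). Slbp ran from 3.85 through 4.76 to 5.49 with a slope of 0.16 (SE 0.096) and did not pass. None of the supply gene calls was kept with the GC contrast as a covariate or within the tumors with high Fos. In both settings 0% of all genes were called. Without X606T, the tumor in which Npat was at 0, 3.41% of all genes rose and 1.69% fell. Whether the supply genes were among them is not given here. The supply score had an r of 0.87 with the DNA replication score but of -0.055 with the histone score.

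Replacement histone genes make mRNAs with poly(A) tails that are also used outside S phase. None of 11 rose or fell with Mki67, where 7.08% of all genes rose and 6.72% fell, and the difference from the members was not tested (0 at the adjusted threshold in limma, and 1 at an unadjusted p under 0.05, H2afj with a slope of -0.29 and an SE of 0.14). H3f3b (7.79, 8.96 and 10.36 as lowest, median and highest) and H3f3a (7.69, 8.40 and 9.21), which encode H3.3, were above every level of every H3 member. H2afz, which encodes H2A.Z, had 6.90, 8.06 and 8.97 and H1f0, the linker histone of resting cells, 5.23, 6.97 and 8.16. Their score had an r of 0.18 with the histone score, of 0.39 with the H2A score and of 0.045 with the H2B score, but of 0.67 with the DNA replication score.

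The second relation asked for was that to RNA without poly(A) tails. Of 34 structural RNA genes listed, 8 were in the table and only Rmrp and Rpph1, the RNAs of the RNase MRP and RNase P enzymes, were above 0 in at least 12 tumors. The index was therefore the mean z score of 14 snoRNA and scaRNA genes that were above 0 in at least 12 tumors: Scarna6, Snora15, Snora16a, Snora17, Snora28, Snora31, Snora61, Snora64, Snora65, Snora70, Snora78, Snora81, Snord104 and Snord22. Each was listed at 0 in some tumors, and most such RNAs are cut from introns of other genes, so their FPKM also reflects the host genes and how short fragments were kept. The index ran from -0.55 in X153T to 0.80 in X2265T.

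No histone gene rose or fell with this index: 0 of 53 at an adjusted p under 0.05 in limma, where 0% of all genes tested were called. At an unadjusted p under 0.05 the count was 0 of 53 members, against 11.6% of all genes, and the lowest unadjusted p of a member was 0.093. The lowest slopes were those of Hist1h1d at -0.38 (SE 0.22), Hist1h2ba at -0.37 (SE 0.27), Hist1h2bp at -0.31 (SE 0.25), Hist1h1e at -0.30 (SE 0.21) and Hist2h3b at -0.30 (SE 0.17). The highest were those of Hist3h2ba at 0.24 (SE 0.36), Hist3h2a at 0.21 (SE 0.19), Hist1h2ab at 0.20 (SE 0.23), Hist1h2ah at 0.20 (SE 0.22) and Hist1h2ao at 0.17 (SE 0.27). Slopes were below 0 for 39 of the 53, with a median of -0.14 against 0.068 over all genes. These directions turned with the index and the tumors used: with the short RNA share of summed FPKM as the index, added after seeing the data, 17 of 17 H2B, 10 of 11 H4 and 4 of 4 H1 slopes were above 0 and 15 of 15 H2A slopes below 0. Within the 15 tumors with high Fos, 16 of 17 H2B slopes on the index were above 0, against 1 of 17 over all tumors. The median slope of all genes was -0.015 on the short RNA share and 0.013 on the index within these 15 tumors. The members' SE had a median of 0.22, so slopes of the size seen could not be told from 0.

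Hist1h2bp ran from 0.28 through 2.62 to 4.71 and Hist2h3b from 0 through 1.22 to 2.86. Hist1h2ab ran from 1.83 through 4.49 to 5.76 and Hist1h2an from 2.01 through 4.51 to 5.74. X2265T, the tumor with the highest index, had the lowest level of Hist1h2ba, Hist1h2bp and Hist1h1d, whereas X153T, with the lowest, was near the middle of the histone score (0.12, where the median tumor had 0.11).

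The histone score had an r of -0.15 with the index (rho -0.14), of 0.023 without X2265T and X153T, of 0.17 within the 15 tumors with high Fos and of -0.64 within the 8 with low Fos. The H2A score had an r of 0.065, the H2B score of -0.19, the H1 score of -0.19, the H3 score of -0.21 and the H4 score of -0.16. The index had an r of 0.55 with the mitosis score and of 0.25 with Mki67. Single index genes went both ways with the histone score, from -0.50 for Snora31 to 0.25 for Snord22. Rmrp had an r of -0.080 with it and Rpph1 of 0.14.

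With Mki67 and the index in 1 fit, 0 members rose and 3 fell with Mki67, where 8.56% of all genes rose and 13.8% fell. The 3 were Hist1h2ap (-1.10), Hist2h2ac (-0.51) and Hist1h2an (-0.57, adjusted p = 0.045, limma). Hist1h2ap passed the filter through the tumors in which it was high, so its call carries no weight here either. On the index 0 of 53 members were called, as were 0% of all genes.

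Outside the members and short RNAs, the 10 genes most like the histone score by Pearson's r over 23 tumors were Nop10 (0.67), Hypk (0.66), Cox17 (0.65), Sp3os (0.64), Cmc1 (0.64), Atp5j (0.61), Atpif1 (0.61), Isca2 (0.61), Minos1 (0.61) and Sod1 (0.59). Nop10, a protein of the box H/ACA snoRNA particle, ran from 4.74 through 5.71 to 6.79 and had an r of 0.46 with the H2A score and of 0.56 with the H2B score. Cox17, a copper chaperone of cytochrome c oxidase, ran from 5.26 through 6.57 to 7.05, with 0.48 and 0.53. Sod1, the cytosolic superoxide dismutase, ran from 7.04 through 8.01 to 8.50, with 0.45 and 0.48. The length contrast, in which libraries with relatively more short transcripts are lower, had an r of -0.40 with the histone score.

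Other cell types were measured beside these patterns. Leukocyte markers (Ptprc, Csf1r and Cd3e) summed to 0.14 FPKM in the lowest and 32.9 in the median tumor, and their score had an r of 0.30 with the H2A score and of -0.31 with the H2B score. Endothelial markers (Pecam1 and Cdh5) summed to 0 to 50.3 FPKM, with an r of 0.49 and -0.27, fibroblast markers (Dcn, Col1a1 and Pdgfra) to 62.4 to 1891 FPKM, with 0.082 and -0.098, and the epithelial markers had -0.14 and 0.24. Their part in the difference between H2A and the other classes was not tested, and in bulk tumors more cells of a type and more RNA per cell cannot be told apart.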

How the data were processed

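RNA of 23 mouse mammary tumors was sequenced as paired ends after library preparation from total RNA with the NEBNext Ultra kit. The paper names different Illumina platforms and run lengths for its bulk libraries, and tumors were not compared by these here. Per the labels, the authors trimmed reads with Trimmomatic 0.35, aligned them to mm10 with TopHat2 2.0.13 and quantified genes with Cufflinks 2.2.1; the gene annotation was not given in the sources used here. The deposited table holds log2 values, log2(FPKM + 1), of 14535 symbols, and FPKM was recovered by subtracting the pseudocount of 1. Depth is unknown, so precision is given by the spread over tumors alone.

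Genes with a mean FPKM of at least 1 (12041) were fitted in limma 3.58.1 (R 4.3.3, with trend) on Mki67, on the index of short RNAs, or on both, each scaled to 1 SD, with Benjamini-Hochberg adjustment over all genes and a threshold of 0.05. This fit was tested on simulated data. All tumors form 1 labelled group; the Fos gap was used for description only. The histone members and all lists (replacement histones, histone mRNA supply, DNA replication, mitosis, structural RNA and cell type markers) were chosen with earlier results of these data known. Named genes were the 10 members with the highest medians, the 5 largest and 5 smallest slopes on Mki67 and on the index, the highest and lowest of each class, up to 8 genes of each list, the index genes, Fos and the 10 genes most like the histone score; other members are named where they depart from their class or pair, chosen after their values were seen. Scores are means of z scores. Coordinates and models came from GENCODE M21, promoter windows from RefSeq, both GRCm38, and all 64 symbols matched. Analyses used Python 3.11.15 with scipy 1.17.1. Columns of the table that matched no sample numbered 0.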

Additional observations from a re-analysis of the deposited data

How the results depend on the processing

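The count of 2 members falling with Mki67 became 0 within the tumors with high Fos, on ranks, with Fos, the length contrast or the GC contrast as a covariate, and on the mitosis or DNA replication score. In these settings 0% to 1.71% of all genes fell. The count became 1 with the first tumor of each title number, after centring each tumor on its median and without X606T. In each case this was Hist1h2ap, where 1.06%, 6.46% and 1.69% of all genes fell. Hist1h2ap passed the filter through the tumors in which it was high, so its calls carry no weight of their own. With the index in the fit, the count of 3 became 0 in the same 7 settings, and 1 after centring, without X606T and with the short RNA share as the index. The shares of all genes that fell were 0% to 1.68% in the 7 settings. Where the count was 1 they were 8.38%, 5.43% and 3.23%, in the order named. The r of the histone score with Mki67 (-0.23) moved to -0.0069 within the tumors with high Fos, with z scores taken within these tumors. It moved to 0.12 on the mitosis score, to 0.12 on the DNA replication score and to 0.021 without X606T. The r with the index (-0.15) moved to 0.15 within the tumors with high Fos, again with z scores taken within them. That with replacement histones (0.18) moved to -0.11 with the length contrast as a covariate. Without the filter the median r fell to 0.40 among H2A genes and to 0.58 among H4 genes, over more genes near 0. The cause of these changes was not tested. In each alternative run 0 members rose with Mki67, where 0% to 11.9% of all genes did, with or without the index in the fit. On the index 0 members moved, where at most 0.0249% of all genes did, so this count says nothing particular about histone genes. The alternatives with X606T left out, the length or GC contrast, the DNA replication score, Rmrp and Rpph1 as the index or the short RNA share were chosen after seeing the data. The planned index of snoRNA and scaRNA genes was the one used, so it gave no separate value. With the title number as a block, also added after seeing the data, the slopes rest on the 4 pairs of tumors sharing a number. The fit on Mki67 left 3 residual degrees of freedom and that with the index 2. In both, 0 members fell with Mki67 and 0 of all genes were called. On Mki67 alone 52 of 53 member slopes were below 0 and 28 had an unadjusted p under 0.05. The shares of all genes with such slopes or p-values in this fit were not counted. These counts therefore cannot be read as particular to the members. No paired analysis between groups was possible because the labels form 1 group.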
